A study of Mus musculus with 5 samples.

Results

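The 10 genes described here build the calcium store of the skeletal muscle fiber, the sarcoplasmic reticulum, and the machinery that empties and refills it: Atp2a1, Atp2a2, Casq1, Casq2, Pvalb, Ryr1, Cacna1s, Pln, Sln and Jph2. They were chosen by name from the gene table of an RNA sequencing experiment on mouse tibialis anterior (TA), a fast-twitch muscle of the lower leg, and are 10 of the 17015 genes in that table. The experiment asked how loss of Nrip1, the gene for the transcriptional corepressor RIP140, alters muscle gene expression. The WT control group held 3 libraries from Cre-negative littermates that carried the floxed Nrip1 allele (Nrip1 fl/fl). The group labelled skmNrip1-/- held 2 libraries from mice with the same floxed allele and a myogenin-Cre transgene, which deletes exon 4 of Nrip1 in cells of the skeletal muscle lineage, so that vessel, blood, nerve and connective tissue cells of the muscle keep the gene. All mice were male and 8 weeks old, and each library was made from whole TA muscle.

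When a motor nerve fires, the voltage sensor of the T-tubule membrane pulls open the calcium release channel of the adjoining sarcoplasmic reticulum, and junctophilins hold the 2 membranes together at the triad. Calcium is then pumped back by SERCA, the sarcoplasmic reticulum calcium ATPase, held in the lumen by calsequestrin and, in fast fibers, soaked up in the cytosol by parvalbumin. Fast and slow fibers use different versions of several of these proteins: Atp2a1 (SERCA1), Casq1 and Pvalb belong to the fast fiber, while Atp2a2 (SERCA2), Casq2 and Pln are typical of the slow fiber and the heart.

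Values are FPKM, fragment numbers scaled to transcript length and to a size set for each library, so levels may be compared between genes. A gene was called when the adjusted p of limma's moderated test was 0.05 or less and the fold change at least 1.2, among the 12148 genes that averaged 0.5 FPKM or more over the 5 libraries. All 10 genes passed that minimum. Nrip1 itself went against the label: its level was 4.64, 7.69 and 6.55 FPKM in WT control replicates 1 to 3, but 25.3 and 22.5 FPKM in the libraries labelled skmNrip1-/- (log2 fold change 1.94, SE 0.21, adjusted p = 0.026). The table holds 1 value per gene, so fragments from exon 4 cannot be told apart from the rest of the transcript. Each direction given here is that of the labelled groups. The study itself checked this mouse line by Nrip1 expression and RIP140 protein, both measured in gastrocnemius and heart. Mb (myoglobin, the oxygen store of oxidative fibers) was at 4329 to 5157 FPKM in WT control and at 7764 and 7664 FPKM in the libraries labelled skmNrip1-/-. Actn3 (the Z-disc actinin of fast fibers) was at 2701 to 3558 FPKM and at 1739 and 1744 FPKM. Neither overlapped between the groups, but neither was called (adjusted p = 0.16 and 0.17). Of the 9 skeletal muscle markers, Mb included, 3 were above 0 in log2 fold change and 6 below. Among them Myh2, the myosin of oxidative fast fibers, was at 223, 333 and 1102 FPKM in WT control. It was at 363 and 406 FPKM in the libraries labelled skmNrip1-/-, with overlap. From the steps between the lowest FPKM values, the size by which each library was scaled was estimated at 36900000 to 49800000 fragments. The deposited values have the same median ratio to their common mean in every library. This size therefore includes that scaling and need not be the number of fragments sequenced. Defining heart markers were near 0 (Myh6 0.866 to 2.71 FPKM), as was the slow myosin Myh7 (0.449 to 1.72 FPKM), against 6416 to 8478 FPKM for the fast myosin Myh4. In whole muscle, fewer fibers of a type and less RNA per fiber cannot be told apart. WT control replicate 1 stood apart from the other controls, with a summed level of the 8 fast fiber markers of 104204 FPKM against 70996 and 76524 FPKM, and the libraries labelled skmNrip1-/- held 65332 and 68341 FPKM. Those 8 markers were all below 0 in log2 fold change (median -0.38), none was called, and their part in the results that follow was not tested. The summed level of the 9 skeletal muscle markers was also highest in WT control replicate 1, at 57789 FPKM against 47457 and 51362 FPKM in the other controls. Myh4 is in both lists. The libraries labelled skmNrip1-/- held 47508 and 45987 FPKM. The summed level of the 8 slow fiber markers was 341 FPKM in WT control replicate 3, against 131 and 169 FPKM in replicates 1 and 2. Most of that sum in WT control was Myl3, a light chain of slow and cardiac myosin, at 89.6, 124 and 285 FPKM in replicates 1 to 3. The sum was 144 and 143 FPKM in the libraries labelled skmNrip1-/-, and its part was not tested either.

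The levels of the 10 genes spanned 4 orders of magnitude and followed the fast character of the muscle. In WT control the order was Atp2a1, Pvalb, Casq1, Ryr1, Jph2, Cacna1s, Casq2, Atp2a2, Pln and Sln, from a mean of 9912 FPKM down to 0.772 FPKM. The ranges of neighbours in this order did not overlap in WT control, except for Jph2 (228 FPKM ± 19.3, SD, n = 3) and Cacna1s (224 FPKM ± 6.58, SD, n = 3). In the libraries labelled skmNrip1-/- that pair stood in the opposite order without overlap, at 162 FPKM ± 3.24 for Jph2 and 215 FPKM ± 16.4 for Cacna1s (SD, n = 2), and no other neighbours changed places. Atp2a1 and Pvalb together made up between 88.0% and 90.2% of the summed level of the 10 genes in every library. The sum itself was 21606, 17585 and 16720 FPKM in WT control and 15798 and 15778 FPKM in the libraries labelled skmNrip1-/-.

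**Figure D1:**
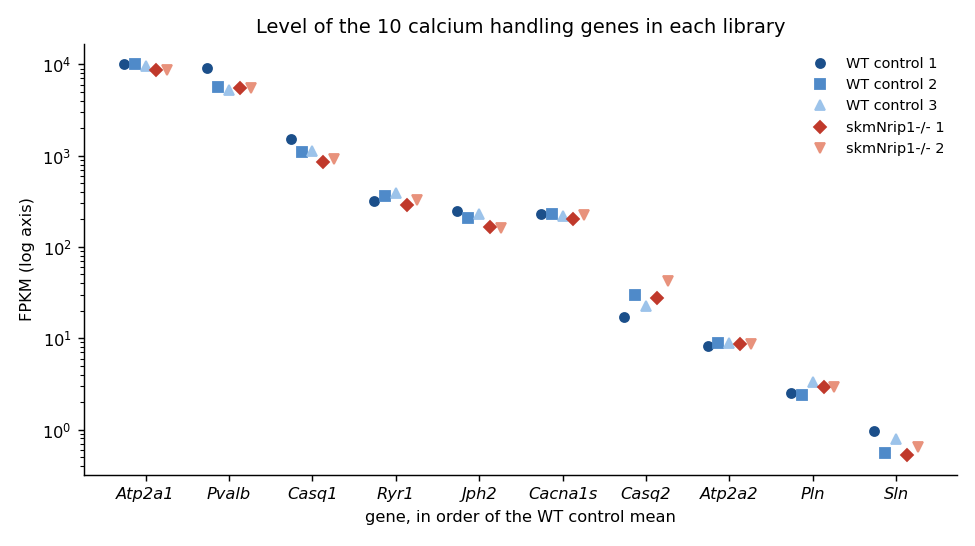
FPKM of each of the 10 genes (log axis) in the 3 WT control libraries (blue) and the 2 libraries labelled skmNrip1-/- (red), with genes in order of their WT control mean. Atp2a1 is between 8634 and 10200.3 FPKM and Sln under 1 FPKM in every library, and the order of the genes is shared by all libraries apart from Jph2 and Cacna1s.

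None of the 10 genes was called as different between the groups, where 0.37% of all genes tested were called higher and 0.0823% lower. At an unadjusted p of 0.05 or less, 0 of the 10 were higher and 2 lower, Casq1 and Jph2, against 6.57% and 5.33% of all genes. In 3 of the 10, Atp2a1, Casq1 and Jph2, both libraries labelled skmNrip1-/- lay below all WT control libraries, and in none did both lie above. Over all genes tested, 14.4% lay below and 15.8% above without overlap. Of the log2 fold changes, 8 were below 0 and 2 above, with a median of -0.21 beside -0.00054 for all genes tested.

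The pumps come first, and positions are those of GRCm38. Atp2a1 (ENSMUSG00000030730, chr7:126445858-126463108), the fast SERCA1 pump that returns calcium to the store, was at 10200.3, 10026 and 9508 FPKM in WT control and at 8693 and 8634 FPKM in the libraries labelled skmNrip1-/-. The groups did not overlap, but the difference was within the error of the fit (log2 fold change -0.19, 95% interval -0.57 to 0.18, adjusted p = 0.70). Atp2a2 (ENSMUSG00000029467, chr5:122453513-122502225), the slow and cardiac SERCA2 pump, was at 8.18, 8.97 and 8.87 FPKM in WT control and at 8.62 and 8.59 FPKM in the libraries labelled skmNrip1-/-. Its groups overlapped and the log2 fold change was -0.01 (95% interval -0.27 to 0.25, adjusted p = 0.99). The table gives 1 value for the 5 annotated Atp2a2 transcripts, so the muscle form SERCA2a and the widely expressed form SERCA2b were not separated. The pumps also share some sequence: 14 of the 6109 different stretches of 31 bases in the Atp2a2 transcripts occur in Atp2a1 too. With Atp2a1 1006 to 1248 times as abundant, fragments assigned to the wrong pump could make up part of the Atp2a2 value, which is uncertain to that extent.

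The ratio of Atp2a1 to Atp2a2 within a library does not depend on how the libraries are scaled. It was 1248, 1117 and 1071 in WT control and 1008 and 1006 in the libraries labelled skmNrip1-/-. The latter were below every control, with a mean difference of -0.18 on the log2 scale (exact permutation test, two-sided, p = 0.20 over 10 arrangements of the libraries, where the smallest p possible is 0.10).

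Both pump regulators among the 10 were low. Phospholamban, encoded by Pln (ENSMUSG00000038583, chr10:53337667-53345987), is the small membrane protein that holds back SERCA2 in heart and slow muscle. Its level was 2.49, 2.38 and 3.301 FPKM in WT control and 2.90 and 2.91 FPKM in the libraries labelled skmNrip1-/-, within the control range (log2 fold change 0.11, 95% interval -0.32 to 0.53, adjusted p = 0.87). Sarcolipin, encoded by Sln (ENSMUSG00000042045, chr9:53850164-53854560), uncouples the pump from calcium transport and is abundant in slow and atrial muscle. Its level was 0.969, 0.555 and 0.791 FPKM in WT control and 0.524 and 0.648 FPKM in the libraries labelled skmNrip1-/-, and the groups overlapped (log2 fold change -0.32, 95% interval -1.03 to 0.38, adjusted p = 0.74). Sln has a single transcript of 1318 bases, which at the estimated step of each library puts roughly 25 to 58 fragments behind each value. The counting error was 13.1% to 19.8% and the SD among controls 27.0% of the mean. Of the 6 pump regulators listed, 3 had values. Myoregulin (Mrln), a related peptide and no member of the 10, was the most abundant of these at 94.0, 53.5 and 58.1 FPKM in WT control. It was at 37.4 and 41.5 FPKM in the libraries labelled skmNrip1-/-, below every control, but was not called (log2 fold change -0.75, SE 0.24, adjusted p = 0.30).

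The calcium buffers gave the widest spread of changes. Casq1 (ENSMUSG00000007122, chr1:172209894-172219868), the fast calsequestrin that stores calcium in the lumen, was at 1504, 1109 and 1134 FPKM in WT control and at 844 and 927 FPKM in the libraries labelled skmNrip1-/-. Both of the latter lay below every control, a ratio of means of 0.709 (log2 fold change -0.48, 95% interval -0.89 to -0.08, adjusted p = 0.34). Part of this distance came from WT control replicate 1, the library with the highest sums of fast fiber and of skeletal muscle markers. Without it the log2 fold change was -0.34. Casq2 (ENSMUSG00000027861, chr3:102086415-102146514), the cardiac and slow calsequestrin, had the opposite direction: it was at 17.0, 29.5 and 22.7 FPKM in WT control and at 27.6 and 42.3 FPKM in the libraries labelled skmNrip1-/-. The groups overlapped, since WT control replicate 2 was above the lower of the latter (log2 fold change 0.60, 95% interval -0.04 to 1.24, adjusted p = 0.46). The estimate was 0.29 without replicate 2 of the group labelled skmNrip1-/-, and 0.91 without its replicate 1. In that replicate 2 the summed level of the 7 tendon and fibroblast markers was 353 FPKM, against 193 to 286 FPKM in the other 4 libraries. Of the 7, Tnmd, Col1a1 and Col1a2 were highest there, whereas Col3a1, Dcn, Pdgfra and Scx were not. The part of those cells in the Casq2 value was not tested.

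The ratio of Casq1 to Casq2 was 88.3, 37.5 and 49.9 in WT control and 30.6 and 21.9 in the libraries labelled skmNrip1-/-. No overlap remained between the groups, and the mean difference was -1.08 on the log2 scale (exact permutation test, two-sided, p = 0.20 over 10 arrangements, and 0.20 after adjustment over the 2 ratios tested). It was -0.74 without WT control replicate 1. The transcripts of the 2 calsequestrins share 0 stretches of 31 bases, so wrongly assigned fragments between them would need shorter matches.

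Parvalbumin, encoded by Pvalb (ENSMUSG00000005716, chr15:78191114-78206400), is the soluble cytosolic buffer that speeds relaxation of fast fibers. It was at 9077, 5606 and 5208 FPKM in WT control and at 5565 and 5452 FPKM in the libraries labelled skmNrip1-/-. WT control replicate 1 alone was high, and the remaining 4 libraries lay within 5208 and 5606 FPKM. The log2 fold change of -0.22 (95% interval -0.85 to 0.40, adjusted p = 0.81) turned to 0.03 without that library.

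**Figure D2:**
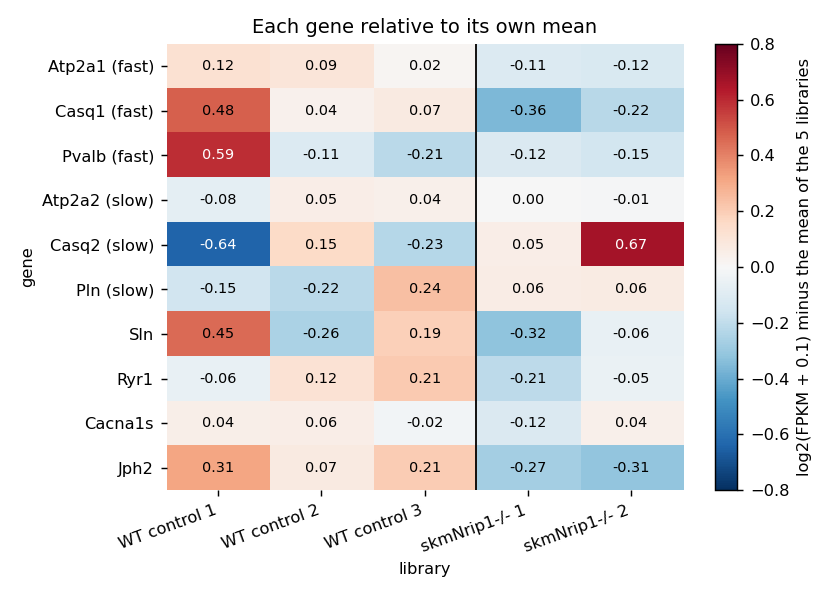
Level of each gene in each library as log2(FPKM + 0.1) minus the mean over the 5 libraries, with blue for lower and red for higher, fast isoforms at the top and slow isoforms below them. Jph2, Casq1 and Atp2a1 are above their mean in all 3 WT control libraries and below it in both libraries labelled skmNrip1-/-, while Pvalb is high in WT control replicate 1 alone and Casq2 runs from -0.64 there to 0.67 in replicate 2 of the group labelled skmNrip1-/-.

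The release channel and its voltage sensor overlapped between the groups. Ryr1 (ENSMUSG00000030592, chr7:29003344-29125179) encodes the ryanodine receptor, the channel through which the store empties, and was at 322, 365 and 388 FPKM in WT control and at 290 and 325 FPKM in the libraries labelled skmNrip1-/-. The groups overlapped by the lowest control (log2 fold change -0.22, 95% interval -0.52 to 0.08, adjusted p = 0.57). Cacna1s (ENSMUSG00000026407, chr1:136052750-136119822) encodes the pore subunit of the T-tubule calcium channel that acts as voltage sensor. Among the controls alone it was the steadiest of the abundant genes, with an SD of 2.94% of the control mean. It was at 227, 229 and 216 FPKM in WT control and at 203 and 226 FPKM in the libraries labelled skmNrip1-/-, with overlap (log2 fold change -0.06, 95% interval -0.32 to 0.19, adjusted p = 0.87). The ratio of Ryr1 to Cacna1s ran from 1.42 to 1.79 in WT control and averaged 1.43 ± 0.0033 (SD, n = 2) in the other group, inside that range.

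Jph2 (ENSMUSG00000017817, chr2:163336242-163397993), a junctophilin that ties the T-tubule to the sarcoplasmic reticulum, was the member with the lowest p. It was at 247, 208 and 229 FPKM in WT control and at 164 and 159 FPKM in the libraries labelled skmNrip1-/-. The groups were well separated, with a ratio of means of 0.710 (log2 fold change -0.49, SE 0.11, 95% interval -0.76 to -0.22), but the adjusted p of limma's test over all genes was 0.19. Leaving out any 1 library kept the log2 fold change between -0.55 and -0.43. Jph1, the other junctophilin of skeletal muscle, was at 80.0, 78.8 and 90.3 FPKM in WT control and at 88.1 and 96.5 FPKM in the libraries labelled skmNrip1-/- (log2 fold change 0.15, adjusted p = 0.66). The ratio of Jph2 to Jph1 was therefore 3.08, 2.64 and 2.53 in WT control and 1.86 and 1.65 in the libraries labelled skmNrip1-/-. This ratio was chosen after its values were seen, so it is given without a test.

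**Figure D3:**
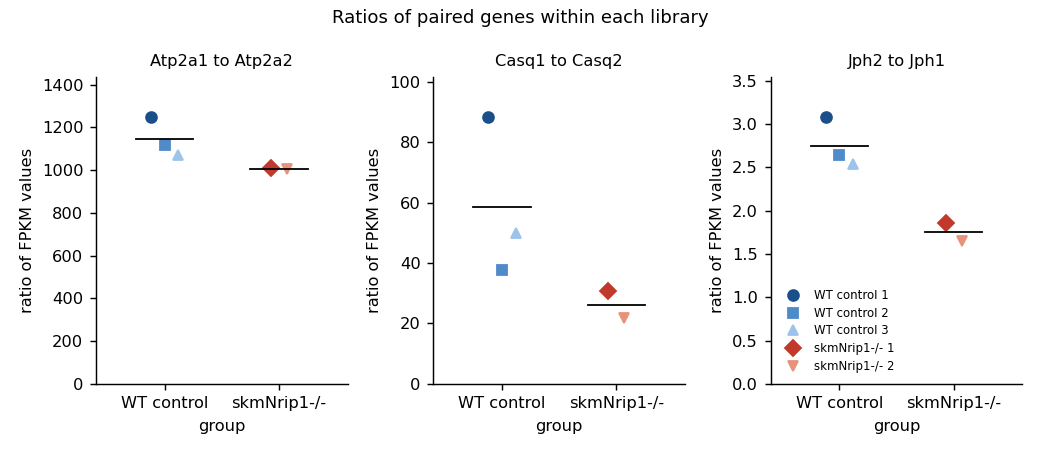
Ratio of the FPKM values of 3 pairs of genes in each library (points) with the group mean (line), for Atp2a1 to Atp2a2, Casq1 to Casq2 and Jph2 to Jph1, each axis starting at 0. In each pair shown both libraries labelled skmNrip1-/- are below all 3 WT control libraries, and the spread among controls is widest for Casq1 to Casq2. Ratios of Ryr1 to Cacna1s and of Atp2a2 to Pln, which overlapped between the groups, are not drawn.

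Upstream sequence is shown for the 3 genes whose libraries labelled skmNrip1-/- lay below every control and for Casq2, the gene with the opposite direction, because RIP140 acts as a corepressor of nuclear receptors at promoters and enhancers. Each is the 150 bases before the start in RefSeq (build GRCm38.p6), read 5′ to 3′ on the strand of the gene, with matches to 3 motifs in capitals on either strand: the E-box CANNTG bound by myogenic factors, the nuclear receptor hexamer AGGTCA, and the MEF2 motif. The Jph2 window is that of the more upstream of the gene's 2 starts.
Casq1, chr1:172219896-172220045, minus strand: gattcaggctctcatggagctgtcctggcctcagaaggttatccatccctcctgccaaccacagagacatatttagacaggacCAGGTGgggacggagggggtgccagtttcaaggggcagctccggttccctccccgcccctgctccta
Jph2, chr2:163397994-163398143, minus strand: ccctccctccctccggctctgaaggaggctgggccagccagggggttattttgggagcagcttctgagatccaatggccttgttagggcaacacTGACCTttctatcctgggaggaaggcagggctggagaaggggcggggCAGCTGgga
Atp2a1, chr7:126463074-126463223, minus strand: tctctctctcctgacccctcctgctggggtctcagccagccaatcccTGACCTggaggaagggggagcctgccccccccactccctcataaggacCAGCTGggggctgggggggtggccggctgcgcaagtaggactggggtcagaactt
Casq2, chr3:102086265-102086414, plus strand: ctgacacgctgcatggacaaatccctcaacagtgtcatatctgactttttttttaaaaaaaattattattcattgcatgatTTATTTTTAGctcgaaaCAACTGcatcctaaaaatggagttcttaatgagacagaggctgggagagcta
All 4 windows hold 1 E-box, a motif present in 47.7% of the 32851 windows of this length before annotated starts. AGGTCA lies 56 to 51 bases before the start of Jph2 and 103 to 98 bases before that of Atp2a1, and in 8.58% of all windows. Among the windows of the 8 members with a RefSeq entry, these were the 2 genes that held it, and the MEF2 motif stood in that of Casq2, 69 to 60 bases before the start, against 1.67% of all windows. A match is a string of letters and no evidence of binding in this muscle.

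Set against each other, the fast isoforms had a median log2 fold change of -0.22, with all 3 below 0, and the slow isoforms one of 0.11, with 2 of 3 above 0. None of the 6 genes was called. In the fit of all libraries each of these medians is the value of 1 gene, Pvalb for the fast and Pln for the slow isoforms. The difference of medians, slow minus fast, is therefore that between Pln and Pvalb. It was 0.33 on the log2 scale, and leaving out any 1 library gave 0.22 to 0.62. Without WT control replicate 1 the log2 fold change of Pvalb was 0.03. The slow isoforms remained minor components in both groups: their summed level was 27.7 to 40.9 FPKM in WT control and 39.1 and 53.8 FPKM in the libraries labelled skmNrip1-/-, beside 15851 to 20781 FPKM and 15014 to 15101 FPKM for the fast isoforms. Most of the slow sum was Casq2. Other slow fiber markers did not share one direction: Myl2, a regulatory light chain of slow and cardiac myosin, was at 2.03, 1.85 and 9.68 FPKM in WT control and at 42.1 and 33.6 FPKM in the libraries labelled skmNrip1-/-, whereas Myl3, the slow and cardiac essential light chain, was at 89.6, 124 and 285 FPKM and at 54.1 and 71.3 FPKM. Of the 8 slow fiber markers 4 were above 0 and 4 below (median log2 fold change -0.02), and none was called.

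**Figure D4:**
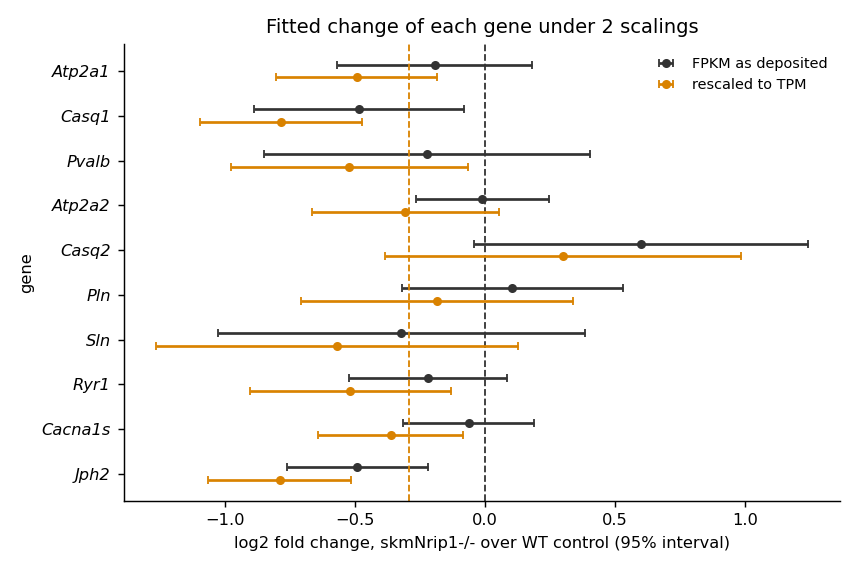
Log2 fold change of each gene, libraries labelled skmNrip1-/- over WT control, with its 95% interval from limma, on the FPKM as deposited (black) and after rescaling each library to one total, TPM (orange), dashed lines marking the median of all genes tested under each. Casq1 and Jph2 have intervals below 0 under both, and under the rescaling the whole set moves left with the median of all genes, to -0.29.

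The size of these changes depended on the scaling of the libraries. In the deposited values all 5 libraries had the same median ratio to their common mean, whereas the sum of FPKM was 969144 to 1144714 in WT control and 1286254 and 1288038 in the libraries labelled skmNrip1-/-. The 13 genes encoded by the mitochondrial genome accounted for 45.4% to 50.7% of that sum in WT control and for 58.6% and 60.9% in the libraries labelled skmNrip1-/-. Rescaled to TPM, where every library has the same total, the median of all genes was -0.29, Pln turned from 0.11 to -0.18, and Jph2 was called at -0.79 (adjusted p = 0.047), while Casq1 at -0.78 was not (adjusted p = 0.053). Relative to the median of all genes these were -0.50 for Jph2 and -0.49 for Casq1, close to their values without rescaling. With the mitochondrial genes left out of the TPM total, an alternative chosen after seeing the data, the median was 0.07 and none of the 10 was called.

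The other genes of calcium handling were taken from 9 lists by role, 61 genes in all, of which 57 were in the table and 50 passed the minimum. None was called higher or lower. At an unadjusted p of 0.05 or less 3 were higher and 10 lower, beside 6.57% and 5.33% of all genes tested. Without overlap, 6 of the 50 lay above and 18 below every control, beside 15.8% and 14.4% of all genes. Their median log2 fold change was -0.14, with 16 above 0 and 34 below.

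Among the partners of the release channel, 11 of 14 tested genes, Ryr1 included, were below 0 (median -0.20). The lowest was Jsrp1 (JP-45), which links the voltage sensor to calsequestrin, at -0.51 (adjusted p = 0.33), and the highest Itpr3, an IP3-gated release channel, at 0.09 (adjusted p = 0.92). Triadin (Trdn), which anchors calsequestrin to Ryr1, was at -0.04 and the luminal histidine-rich protein Hrc at -0.01.

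The voltage sensor list had a median of -0.25 over 5 genes. Of its auxiliary subunits, Cacng1 was at -0.55 (211, 127 and 150 FPKM in WT control against 103 and 114 FPKM) and Cacnb1 at -0.44 (91.9, 82.7 and 88.6 FPKM against 64.6 and 64.6 FPKM), both below every control. Neither was called (adjusted p = 0.38 and 0.18), and Cacnb1 was called under TPM rescaling alone (-0.74, adjusted p = 0.049). The highest of the list was Cacna2d1, the extracellular subunit, at 0.12 (adjusted p = 0.80).

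Of the 10 genes of triad and T-tubule structure, 8 were below 0. Jph2 was the lowest, followed by Sypl2 (mitsugumin 29) at -0.42 (adjusted p = 0.33), and the highest was Mtm1, the phosphoinositide phosphatase myotubularin, at 0.43, with 3.99, 4.96 and 4.28 FPKM in WT control and 5.89 and 6.03 FPKM in the libraries labelled skmNrip1-/- (adjusted p = 0.29).

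Beyond the members, the lowest and highest of the pump list were Atp2a3 at -0.18 and the plasma membrane pump Atp2b1 at 0.08. In the buffer list these were calreticulin (Calr) at -0.33 and sarcalumenin (Srl) at 0.01. Genes of store-operated entry and exchange ran from Stim2 at -0.34 to Stim1 at 0.29, so the 2 sensors of store calcium stood at the ends of the list, and Stim1 was above every control (67.3, 85.0 and 83.0 FPKM against 94.5 and 95.8 FPKM, adjusted p = 0.46). Of the calcium-calmodulin kinases, Camk2a was lowest at -0.30 and Camk2g highest at 0.17.

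Mitochondrial calcium uptake was the list with the highest median, 0.13 over 7 genes, 5 of them above 0. Mcu, the pore of the mitochondrial calcium uniporter, ran from 13.001 to 13.8 FPKM in WT control and was at 16.6 and 16.2 FPKM in the libraries labelled skmNrip1-/- (log2 fold change 0.30, adjusted p = 0.32). Both of the latter were above every control, and Mcu was not called. The lowest of the list was Smdt1, the uniporter's essential small subunit, at -0.24 (adjusted p = 0.71). Genes left out by the minimum were Ryr3, Fkbp1b, Atp2b2, Orai2, Slc8a2, Mcub and Camk4, each under 0.6 FPKM in every library.

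**Figure D5:**
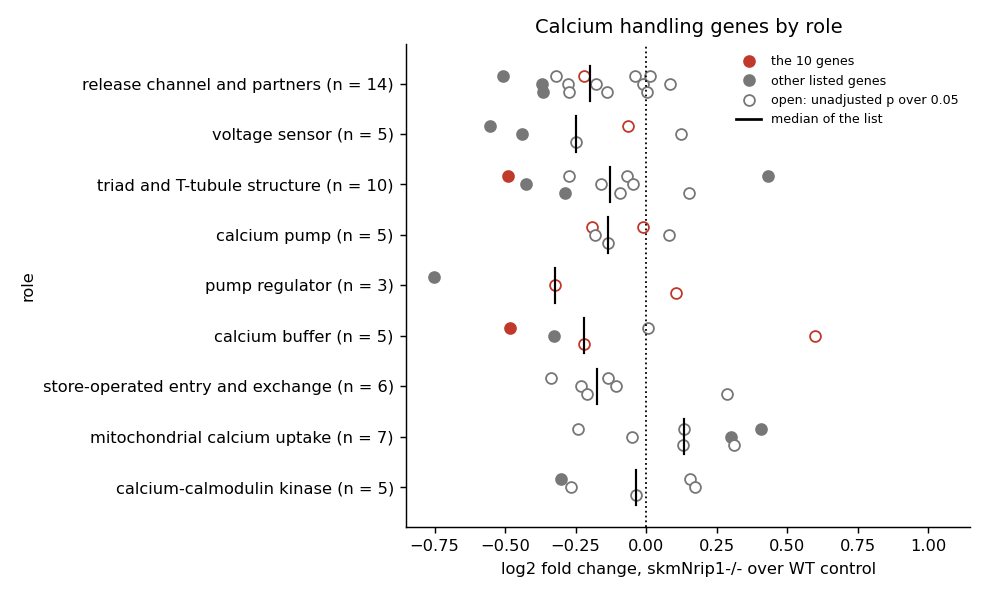
Log2 fold change of the 60 tested calcium handling genes by role (libraries labelled skmNrip1-/- over WT control), with the 10 members in red, the others in grey, filled points for an unadjusted p of 0.05 or less, a bar for the median of each list and a dotted line for that of all genes. None was called after adjustment, and the medians lie between -0.32 and 0.13.

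Genes with the pattern most like a member over the 5 libraries were sought among 4557 genes that averaged 10 FPKM or more, by the root mean square difference of centred log2(FPKM + 0.1). For Casq1, the fast isoform with the largest change, they were Plpp7 (0.026), Slc37a4 (0.043) and Mllt11 (0.043). Plpp7, for example, was at 59.4, 45.2 and 46.1 FPKM in WT control and at 35.2 and 37.9 FPKM in the libraries labelled skmNrip1-/-, which like Casq1 put WT control replicate 1 highest. For Casq2, the slow isoform with the largest change, they were Tfrc (0.13), Nrp1 (0.14) and Slc25a42 (0.16), all with their lowest level in WT control replicate 1 and their highest in replicate 2 of the group labelled skmNrip1-/-. The likeness rests on 5 points that share their libraries and is a description.

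Markers of other cell types were compared for the same libraries. The 5 blood markers (hemoglobin genes and Alas2) were all above 0, with a median of 0.51 and a summed level of 511 to 764 FPKM in WT control and 827 to 996 FPKM in the libraries labelled skmNrip1-/-. Medians were -0.04 for smooth muscle (5 genes tested), -0.03 for endothelium (5), 0.07 for adipocytes (4), -0.22 for nerve and Schwann cells (4), 0.18 for tendon and fibroblasts (7) and -0.44 for heart (2). The smooth muscle median is the value of Des, which at 840 to 1074 FPKM in WT control is also a skeletal muscle marker. That list ran from -0.14 to -0.03. None of the genes in these lists was called, and their part in the values of the 10 genes was not tested.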

How the data were processed

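RNA from TA muscle in 5 libraries (3 WT control and 2 labelled skmNrip1-/-) was extracted with the RNeasy kit, and libraries were built with the NEBNext Ultra kit. The study's text states 3 samples in each group, whereas the labels give 2 for skmNrip1-/-, and those 2 were analysed here. Per the submitters' processing notes the reads were quantified with Salmon 1.10.2 against mm10 and compared with DESeq2 1.44.0. The annotation release and the FPKM calculation are not given in the sources used here. The authors deposited 1 table with an FPKM value per gene and library, which was analysed. It also holds the authors' own log2 fold changes and p-values, which were not used. Whole fragments could be seen as steps in the low FPKM of long genes with 1 transcript (over 88% of values within 0.2 of a whole step). From these the size used to scale each library was estimated, which need not be its sequenced depth. Counts per gene were not rebuilt. FPKM are relative values and intervals cover the spread between libraries only.

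Groups were taken from the sample titles. The limma package (version 3.58.1, under R 4.3.3) fitted a linear model with a trended empirical Bayes variance on log2(FPKM + 0.1) of the 12148 genes averaging 0.5 FPKM or more, and p-values were adjusted over these by the Benjamini-Hochberg method. A fold change is on that scale, which understates the change of low genes. The script was tested on simulated data. Ratios were compared with an exact permutation test, two-sided. The labels do not say that libraries came from separate mice and name no batch, so p-values measure the spread between these libraries, which may be technical. Gene symbols were taken from the table, and coordinates and transcript numbers from GENCODE M21 (GRCm38, the assembly also called mm10), promoter windows from RefSeq (8 of 10 members matched). The alternatives were other pseudocounts, minimums, scalings and variance settings, a replicate block and leaving out each library. The members and gene lists were chosen with earlier results of these data known. Named were all 10 members, every other calcium gene called, the highest and lowest of each list, Nrip1 and the 3 genes with the nearest pattern to Casq1 and to Casq2. Hrc, Trdn, Stim1, Cacnb1, Jph1, Mcu and the markers Mb, Actn3, Myh2, Myl2, Myl3 and those of tendon were named after their values were seen. One gene that this rule names is not reported here.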

Additional observations from a re-analysis of the deposited data

How the results depend on the processing

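Of 149 log2 fold changes of the 10 genes under the alternatives, 140 kept their direction and stayed uncalled. Exceptions were small values that crossed 0: Atp2a2 with the replicate block (0.0065), over the fits that left out 1 library (-0.052 to 0.014) and under TPM without mitochondrial genes (0.065), Cacna1s in that rescaling (0.012) and with 1 library left out (-0.14 to 0.014), Pvalb with 1 library left out (-0.37 to 0.028), and Pln under TPM (-0.18). Under TPM, Jph2 was called (-0.79), giving 1 member and 1 other calcium gene called, 29 genes higher and 59 lower against 45 and 10, and medians of -0.52 for the fast and -0.18 for the slow isoforms. Calls over all genes were 22 higher and 3 lower without a trend and 14 and 3 at an adjusted p of 0.01. Leaving out 1 library gave 6 to 55 higher and 3 to 16 lower, with medians of 0.019 to 0.25 for the slow and -0.37 to -0.17 for the fast isoforms. Same-numbered libraries showed little shared deviation (correlations 0.065 and 0.095). The deviations of the 2 libraries labelled skmNrip1-/- mirror each other, so these correlations cannot show whether the numbers pair the libraries. The replicate block, which leaves out WT control replicate 3 in effect, gave 18 higher and 4 lower and 0.25 for the slow isoforms. With 2 libraries in a group and Sln at roughly 25 to 58 fragments, intervals of the low genes stay wide. The cause of the other shifts was not tested.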
